A study of Mus musculus with 2 samples.

Results

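A set of 9 genes of the connective-tissue cell was followed across 11 cell clusters of tumors grown in mice: the growth factor receptors Pdgfra and Pdgfrb, the proteoglycans Dcn and Lum, the glycoproteins Fn1, Fbn1, Postn and Sparc, and the hyaluronan-binding protein Tnfaip6. They were taken by name from the deposited cluster table, in which all 9 were found among 18319 named genes. They were chosen by their deposited folds in these clusters, most of all cluster 11, so every level given for them is a description and none was tested.

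The tumors arose from injected mouse dysplastic stem cells, which the labels call DP-DSC, in female mice of the NuJ strain. There was 1 library that came from a cystic adenocarcinoma, 10 weeks after injection, and 1 that came from a tubular adenocarcinoma at 13 weeks. Both were labelled as tumor cells and were dissociated fresh and encapsulated in droplets with barcoded beads (inDrop). NuJ mice are nude mice, which lack a working thymus and so most T cells but keep their own fibroblasts, macrophages and vessels. Host and injected cells are both of mouse origin, so stromal cells of the host and cells derived from the injected line cannot be told apart by these genes. The single deposited table gives clusters only, with no tumor type, so the cystic and the tubular tumor could not be compared.

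Fibroblasts build and remodel the matrix that surrounds epithelium. Platelet-derived growth factors (PDGF) drive their growth through the tyrosine kinases PDGFRα and PDGFRβ, the former typical of fibroblasts and the latter shared with pericytes. The fibres that fibroblasts lay down are collagens, fibronectin and fibrillin, while small proteoglycans and matricellular proteins such as periostin and SPARC adjust fibre assembly and cell adhesion. In tumors, fibroblasts are a main source of this matrix, and macrophages can also make fibronectin.

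The start regions are shown for 3 of the 7 genes that were raised in cluster 11 and in no other cluster. For Dcn and Lum no RefSeq window was at hand, and the Fbn1 and Sparc windows lay wholly or mostly in annotated exons. The sequences are RefSeq's for GRCm38.p6, the build also called mm10, and hold the bases before a gene's start that lie in no annotated exon of it. They read 5′ to 3′ on the gene's strand, and capitals mark matches to TGANTCA, the core of AP-1 sites, and to TATAAA, the TATA box. The Tnfaip6 stretch is chr2:52037863-52038008, the Postn stretch chr3:54360857-54361106 and the Pdgfra stretch chr5:75152001-75152250, all on the plus strand.
Tnfaip6: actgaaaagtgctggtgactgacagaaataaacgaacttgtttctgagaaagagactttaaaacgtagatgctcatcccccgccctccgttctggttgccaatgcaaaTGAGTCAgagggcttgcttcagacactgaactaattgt
Postn: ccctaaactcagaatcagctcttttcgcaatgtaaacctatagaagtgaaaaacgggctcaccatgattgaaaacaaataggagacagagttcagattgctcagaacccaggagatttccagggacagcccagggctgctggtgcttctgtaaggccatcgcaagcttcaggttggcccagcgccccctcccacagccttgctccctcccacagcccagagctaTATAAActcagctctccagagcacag
Pdgfra: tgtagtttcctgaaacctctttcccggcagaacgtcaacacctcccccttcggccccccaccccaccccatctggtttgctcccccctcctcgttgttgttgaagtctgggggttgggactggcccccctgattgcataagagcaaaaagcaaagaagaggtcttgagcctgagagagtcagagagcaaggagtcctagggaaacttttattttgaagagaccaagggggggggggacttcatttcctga

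RefSeq windows were at hand for 5 of the 9 genes, namely Tnfaip6, Postn, Pdgfra, Fbn1 and Sparc, and 250 bases before each start were searched on both strands. The Tnfaip6 window held the only TGANTCA, 142 bases before its RefSeq start, and 6.75% of all 32851 windows of that length held one. Its first bases overlapped a CANNTG, the E box, which 66.2% of windows held. Postn held the only TATAAA, 26 bases before the start that lies 2 bases from an annotated GENCODE start, against 12.4% of all windows; a second Postn window, from another RefSeq start, held none of the motifs searched. GGAATG, the TEAD site, was found in Tnfaip6 alone, 8 bases before the RefSeq start and inside the annotated exon, so beyond the stretch shown (12.6% of windows). CCAAT was found in Tnfaip6 (33.8% of windows) and GGGCGG in Tnfaip6 and Fbn1 (32.7%). The Pdgfra and Sparc windows held a CANNTG and none of the other motifs. The 3 sequences therefore had no motif in common that was searched. A match is a run of letters, and none of these data bear on binding there.

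In what follows a gene is listed in a cluster when the authors' table gives it there, which needs a fold above 1.5, and raised when its fold reaches 2 and its p there is no more than 0.05. The fold is linear. Its reference is not written in the table, and the other cells are the usual one. A gene that is not listed has no value, which does not show that it is absent from those cells. A fold compares cells for 1 gene and says nothing of which of 2 genes is more abundant. With 1 library per tumor type no value has an error over animals, and the depth and the number of cells behind each fold are not given in the table.

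Of the 9 genes, 8 were listed and raised in cluster 11, where 17.0% of all named genes were raised. Cluster 4 had 2 of the 9 raised, Pdgfrb and Fn1, where 18.6% of all genes were, and cluster 8 had 1, Fn1, where 6.36% were. The other clusters had none raised. For clusters 1, 2, 3, 5, 6, 7, 9 and 10, in that order, the share of all named genes raised was 1.82%, 2.89%, 4.0%, 4.32%, 20.3%, 3.42%, 26.6% and 4.90%. The share of all named genes that was listed was 25.7% in cluster 11, 31.5% in cluster 4 and 26.4% in cluster 8. It was 20.6% for cluster 5, where Postn was the only 1 of the 9 listed. In the clusters that listed none of them, 1, 2, 3, 6, 7, 9 and 10, it was 6.34%, 9.07%, 29.9%, 36.4%, 12.1%, 38.9% and 18.9%. In all, 12 of the 99 pairs of a gene and a cluster were listed and 11 raised. Nothing is read from these shares, because the genes were chosen for this pattern.

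**Figure D1:**
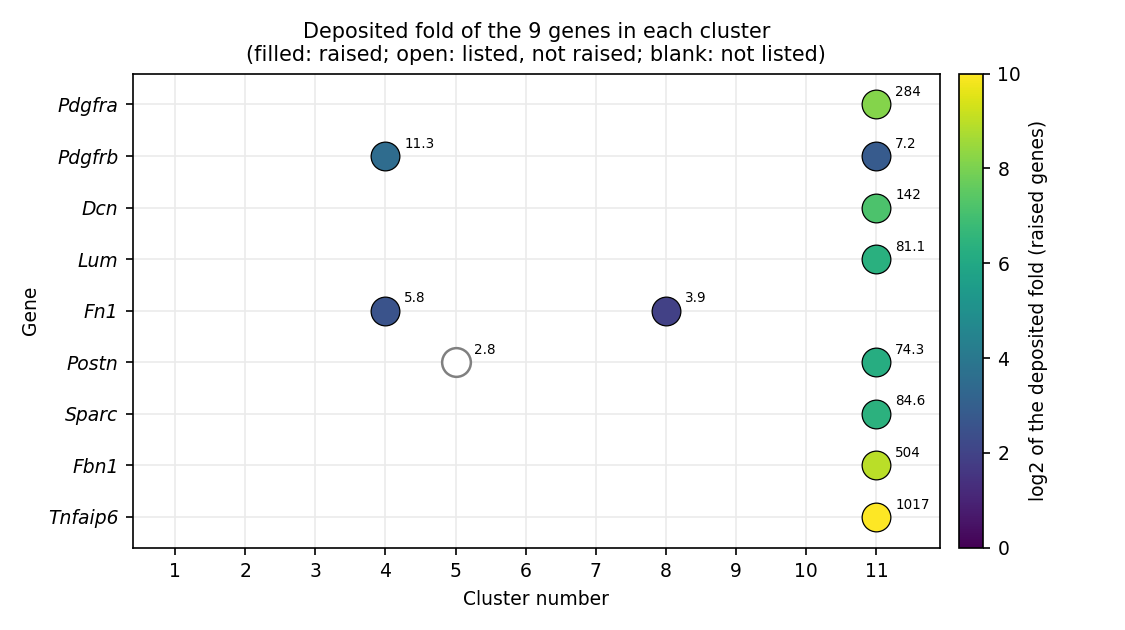
Deposited linear fold of the 9 genes (rows) in clusters 1 to 11 (columns), printed beside each point; color is the log2 of the fold, open circles are listed but not raised, and blanks are not listed. All but Fn1 have a point in cluster 11, from 7.2 to 1017, and Fn1 has points in clusters 4 and 8 only.

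Cluster 11 was fibroblast-like by marker genes. Of 12 fibroblast markers, none of them among the 9 genes, 11 were named in the table, all 11 were listed in cluster 11 and 10 were raised. The authors' deposited table puts the collagen I chains Col1a2 and Col1a1 at 343 and 312 there and dermatopontin, Dpt, at 245. None of the 9 epithelial, 10 macrophage, 8 dendritic, 7 neutrophil, 6 mast cell, 6 T and NK cell and 6 red cell markers named in the table was listed there. Other mesenchymal markers were present: 3 of 9 pericyte and smooth muscle genes were raised in cluster 11, which the authors' deposited table gives for actin Acta2 as 199, for the channel subunit Abcc9 as 34.0 and for Tagln as 28.4. The other 6 of that list, Rgs5, Cspg4, Notch3, Mcam, Kcnj8 and Myh11, were not listed there. Raised too were 2 of 9 endothelial genes (Tek at 5.86 and Kdr at 3.60 in the authors' deposited table), 1 of 2 named mesothelial genes (Wt1, 28.8) and 1 of 5 platelet genes (Gp1bb, 6.88). The share of all named genes raised in cluster 11 was 17.0%. Counts of 2 of 9 and 1 of 5 lie near that share, and nothing is read from them. All 12 markers of cycling cells were raised in cluster 11, and the authors' deposited table has Top2a at 43.1, Birc5 at 18.2 and Nusap1 at 16.2. The part of cell division or of pericytes in the levels of the 9 genes was not tested.

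The 2 receptors differed in where and how far they were raised. Pdgfra, the receptor for most PDGF dimers and a standard fibroblast marker, was listed in cluster 11 alone, where the authors' deposited table puts it at 284. It stood 17th by fold and 71st by p among the 4710 genes listed there. Pdgfrb, the receptor of fibroblasts and pericytes, was raised in 2 clusters, at 11.3 in cluster 4 and 7.19 in cluster 11 of the authors' deposited table. Of the 9 genes it was the only one raised in both. The order of the pair turned with the measure: cluster 4 gave the larger fold, but Pdgfrb was 2729th by p there and 566th in cluster 11. The folds have no replicates behind them, so which cluster is higher was not tested.

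Cluster 4 was macrophage-like: all 10 macrophage markers were raised, with the lysosomal protein Cd68 at 8.90, the Fc receptor Fcgr1 at 8.88 and complement C1qc at 7.47 in the authors' deposited table. Of the fibroblast markers, 2 of 11 were raised in cluster 4, beside 18.6% of all named genes, and both were surface proteins. Fap, a protease of activated fibroblasts, was at 9.78 there and at 1.61, below the fold for a raised gene, in cluster 11 of the authors' deposited table. The deposited p of Fap was 0.027 in cluster 4 and 3.8e-05 in cluster 11. Podoplanin (Pdpn), a mucin-like surface protein, was at 3.76 in cluster 4 and 23.6 in cluster 11 of the authors' deposited table. No collagen marker of fibroblasts and no pericyte marker was listed in cluster 4. Raised there besides were 2 of 8 dendritic genes (Cd209a, 10.9, and Batf3, 2.31, in the authors' deposited table), 1 of 7 neutrophil genes (Mmp8, 2.18), 1 of 6 mast cell genes (Kit, 5.32) and 1 of 5 platelet genes (Pf4, 17.9). Of the 9 endothelial genes 2 were listed and 0 raised, and no epithelial, mesothelial, T and NK, red cell or cycling marker was listed. The next protein-coding gene after Pdgfrb on the same strand, 15.5 kb beyond it, was Csf1r, the macrophage growth factor receptor, which was raised in clusters 4, 8 and 10 at 3.57, 5.12 and 3.30 in the authors' deposited table. Its part in the Pdgfrb value of cluster 4 was not tested.

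The PDGF ligands were raised mainly in clusters of other kinds. Pdgfa was raised in clusters 6 and 9, at 3.32 and 2.76 in the authors' deposited table, and Pdgfb in clusters 3 and 9, at 4.89 and 4.76. Pdgfc was raised in cluster 6 alone, at 2.34 in the authors' deposited table. Pdgfd, a ligand of PDGFRβ, was raised in clusters 6, 9 and 11, at 8.21, 2.73 and 2.14 in the authors' deposited table, so it was the only 1 of the 4 ligands listed beside the receptors in cluster 11. Clusters 3, 6 and 9 were those with most epithelial markers raised, at 4, 5 and 5 of 9, beside the shares above. None of the 4 ligands was listed in cluster 4.

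The small leucine-rich proteoglycans Dcn and Lum bind collagen fibrils and limit their thickness. Dcn (decorin) was listed in cluster 11 alone, where the authors' deposited table puts it at 142, the 48th largest of the cluster, and stood 19th by p. Lum (lumican) was also listed there alone, at 81.1 in the authors' deposited table, and stood 109th by fold and 104th by p. The genes are neighbours on chromosome 10, both on the plus strand: Dcn runs from 97479609 to 97518143 and Lum from 97565128 to 97572703, with 46984 bases between them. The 2 further proteoglycan genes beyond Lum, Kera and Epyc, are not named in the table. Of 13 other members of the family, 6 were named in the table and 4 were raised in cluster 11. Biglycan (Bgn) was at 179.7, osteoglycin (Ogn) at 149 and asporin (Aspn) at 18.8 in the authors' deposited table. The median over the 4 listed genes was 84.1, against 3.27 over all genes listed in cluster 11.

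Fibronectin, Fn1, was the exception among the 9. It was raised in cluster 4 at 5.85 and in cluster 8 at 3.86 in the authors' deposited table and was not listed in cluster 11. In cluster 8 it stood 17th of 4844 genes by p and in cluster 4 it was 64th of 5762. Macrophage markers in the authors' deposited table ran from 2.63 to 8.90 in cluster 4, with a median of 4.62, and from 2.38 to 6.11 in cluster 8, with a median of 5.11, so both Fn1 folds lay inside those ranges. Cluster 8 also had all 10 macrophage markers raised, led by Fcgr1 (6.11), C1qb (5.88) and lysozyme, Lyz2 (5.69), in the authors' deposited table. It had 5 of 8 dendritic cell markers raised as well, led by the lectin Clec9a at 74.6, the receptor Flt3 at 42.5 and Cd209a at 7.23 in the authors' deposited table, and was given no single name. No fibroblast marker was raised in cluster 8, where Pdpn alone was listed, and no epithelial, mesothelial, mast cell or red cell marker was listed there. Raised beside those in cluster 8 were 2 of 9 pericyte genes (Kcnj8 at 35.9 and Rgs5 at 10.4 in the authors' deposited table), 2 of 6 T and NK genes (Nkg7, 46.3, and Cd8a, 23.3), Mmp8 (10.8) of the neutrophil list and Pf4 (2.90) of the platelet list. Of all named genes, 6.36% were raised in cluster 8. No endothelial and no cycling marker was raised there. Fn1 overlaps the antisense gene Apol7d by 364 bases, and reads cannot be assigned between them without strand. Apol7d was listed in clusters 6 and 9, where Fn1 was not.

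**Figure D2:**
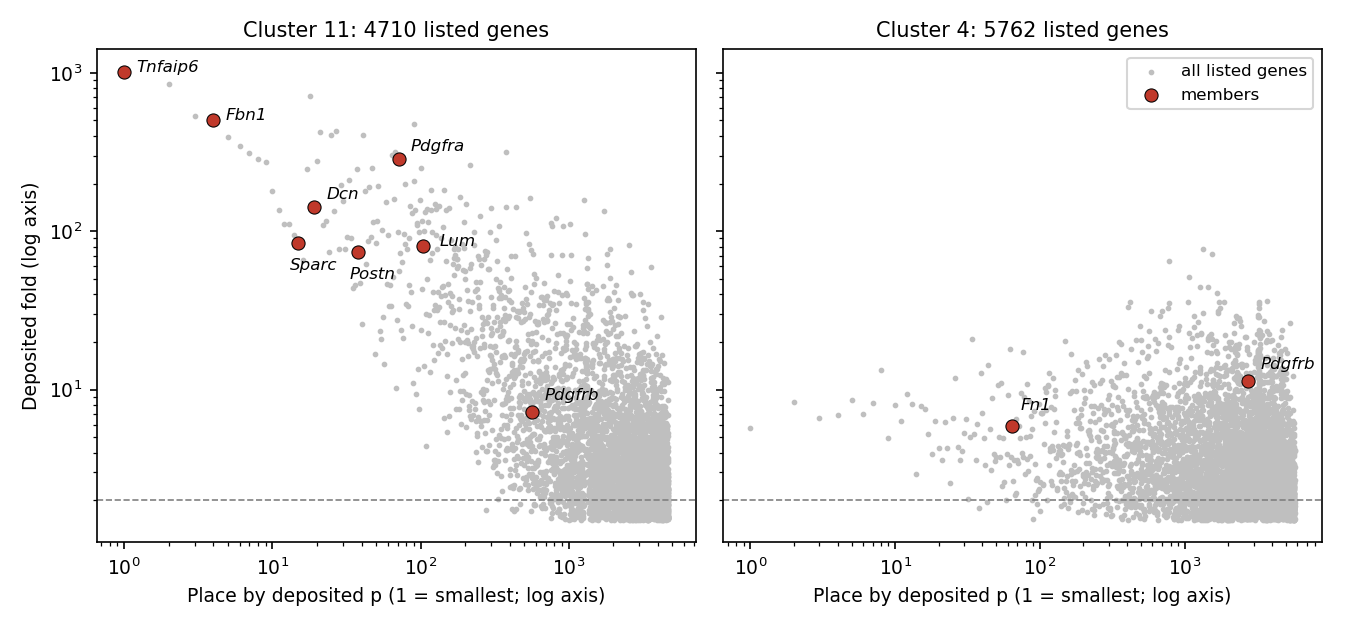
Deposited fold (vertical, log axis) against the place of a gene in the cluster's order of deposited p (horizontal, log axis) for all genes listed in cluster 11 (left) and cluster 4 (right), with members of the 9 genes in red and the fold of 2 dashed. In cluster 11 all members but Pdgfrb lie above 70-fold within the first 104 places by p, while in cluster 4 Fn1 is early by p and Pdgfrb late.

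Periostin and SPARC are matricellular proteins, which tune contacts between cells and fibres. Postn was raised in cluster 11 alone, at 74.3 in the authors' deposited table, 38th by p. It was also listed in cluster 5 of the authors' deposited table, with a fold of 2.82 and a deposited p of 0.445, which is not a raised level. Sparc, a collagen-binding protein, was listed in cluster 11 alone, at 84.6 in the authors' deposited table. Its place by p was 15th, in a tie of genes with a deposited p of 0. By fold they stood 121st and 103rd there, close to Lum.

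Matricellular genes as a list followed cluster 11 in part. Of 22 names, older and newer symbols of the same genes included, 15 were named in the table and 11 were raised in cluster 11, with a median of 15.1. Thrombospondin 2 (Thbs2) was highest at 421, followed by tenascin C (Tnc) at 153 and Ccn5 at 145 in the authors' deposited table. Others were raised elsewhere. Thbs1, an activator of latent TGF-β, was raised at 2.64 in cluster 4 and 2.10 in cluster 8 of the authors' deposited table, and Tgfbi, an integrin-binding matrix protein, at 8.14 and 3.27; neither was listed in cluster 11. Clusters 4 and 8 are also those in which Fn1 was raised. Other genes of the list did not share that pair. Comp and Ccn3 were raised in cluster 4 and not in cluster 8. Ccn1 and Ccn2 were raised in clusters 6 and 9, and Ccn2 also in cluster 3. Of the 15 named genes, 4 were raised in cluster 4 and 2 in cluster 8, beside 18.6% and 6.36% of all named genes.

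Receptors that bind fibronectin or periostin were spread over the clusters. Of 11 genes 10 were named in the table, and 3 were raised in cluster 11, namely Itgb8 (22.9), syndecan 2, Sdc2 (4.41), and Itga5 (2.50) in the authors' deposited table. Integrin α5, encoded by Itga5, is the classical fibronectin receptor subunit, and it was also raised at 2.32 in cluster 4 and 3.67 in cluster 8 of the authors' deposited table. Itga4, whose product also binds fibronectin, was raised at 7.67 in cluster 4 and 2.71 in cluster 8 of the authors' deposited table and not listed in cluster 11. Of the 10 named genes, 2, 2 and 3 were raised in clusters 4, 8 and 11. The share of all named genes raised there was 18.6%, 6.36% and 17.0%. Both α chains were raised in the 2 clusters with raised Fn1, and a link between them was not tested. Their partner Itgb1 was raised in no cluster. The epithelial integrin chain Itgb6 was raised in clusters 3 and 6 at 7.87 and 2.62, and Itgb5 in cluster 6 at 3.74, in the authors' deposited table.

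**Figure D3:**
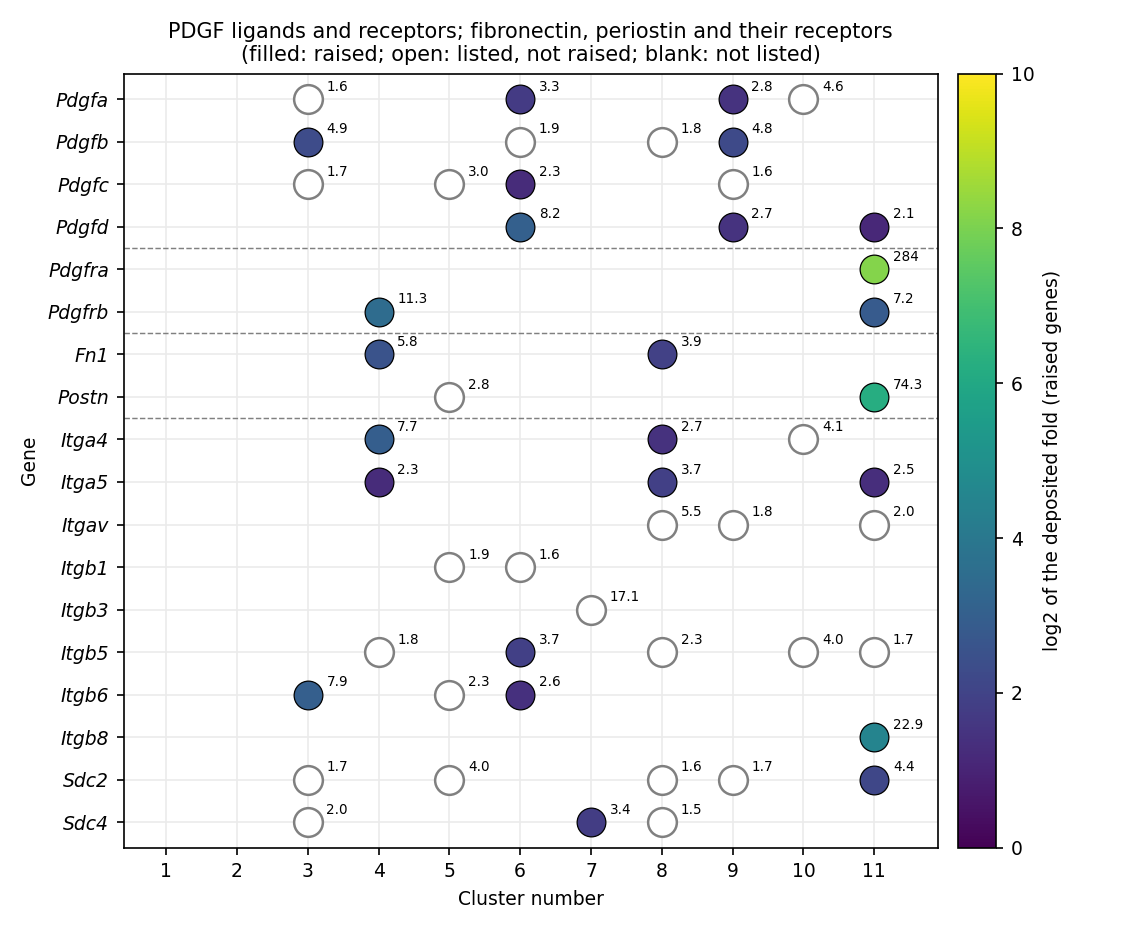
Deposited fold of the 4 PDGF ligands, the 2 PDGF receptors, Fn1 and Postn, and the named integrin and syndecan genes (rows) in clusters 1 to 11 (columns); filled circles are raised and colored by log2 fold, open circles are listed but not raised. Ligands are filled mainly in clusters 6 and 9, Pdgfra in cluster 11, Pdgfrb in clusters 4 and 11, Fn1 and Itga4 in clusters 4 and 8, and Itga5 in clusters 4, 8 and 11.

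Fibrillin-1, Fbn1, forms the microfibrils on which elastic fibres are laid down. Fbn1 was listed in cluster 11 alone, at 504 by the authors' deposited table, the 5th largest. It stood 4th in the order of p, tied with other genes at a deposited p of 0. The gene spans 207 kb of chromosome 2, from 125300594 to 125507993 on the minus strand, the longest of the 9, and has up to 66 exons. At its 5′ end the opposite-strand gene Gm9913 overlaps it by 2793 bases; that gene is not named in the table. Of 15 further elastic fibre and microfibril genes, all 15 were named and 11 were raised in cluster 11, with a median of 16.5 over the 12 listed. Mfap5, a microfibril glycoprotein, was at 284, fibulin 1 (Fbln1) at 73.2 and Fbn2 at 66.6 in the authors' deposited table. The 4 that were not raised there were Emilin1, Ltbp3 and Ltbp4, which were not listed, and Ltbp1, at 5.34 with a deposited p of 0.119 in the authors' deposited table. Ltbp1 was raised in cluster 9, at 7.01 in the authors' deposited table.

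Tnfaip6 encodes TSG-6, which binds hyaluronan and moves heavy chains of inter-α-inhibitor onto it. It was listed in cluster 11 alone, at 1017 by the authors' deposited table, the largest fold there, and stood first in the order of p. Its deposited p was 0, as were those of Fbn1, Sparc and other genes. Genes with that p cannot be ordered by it. The gene lies on chromosome 2 from 52038009 to 52056686 on the plus strand and has 6 exons. Among the 8 genes listed in cluster 11 the folds ran 141 times from Pdgfrb to Tnfaip6, and 13.7 times when Pdgfrb was left out. The median over the 8 was 113.

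Of 18 names for hyaluronan synthesis, binding and turnover, 15 were named in the table and 6 were raised in cluster 11. The share of all named genes raised in that cluster was 17.0%. Pentraxin 3 (Ptx3), which is incorporated into hyaluronan matrix with TSG-6, was at 158, the hyaluronan-degrading Cemip at 134 and the synthase Has1 at 46.7 in the authors' deposited table. The other synthases were raised elsewhere: Has2 at 9.10 in cluster 3 and Has3 at 5.51 in cluster 9 of the authors' deposited table. In cluster 11 Has2 was listed at 5.66 and not raised, because its deposited p was 0.130 in the authors' deposited table. Itih5, a heavy-chain gene of the inter-α-inhibitor family, was raised at 15.2 in cluster 11 of the authors' deposited table. The receptor Cd44 was not listed in cluster 11. Versican (Vcan), a large proteoglycan that binds hyaluronan, was raised in clusters 4, 8 and 11, at 8.41, 3.45 and 6.44 by the authors' deposited table. The median over the 7 genes listed in cluster 11 was 15.2.

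Fibrillar collagens are the main fibres of this matrix. Of 9 named fibrillar chains 8 were raised in cluster 11, with a median of 116, led by Col5a3 (851), Col1a2 (343) and Col1a1 (312) in the authors' deposited table. Of 16 genes for collagen processing and cross-linking 15 were raised, with a median of 36.6. The procollagen peptidase Adamts2 was at 402, the cross-linking oxidase Lox at 279 and Loxl1 at 111 in the authors' deposited table. Over all 8 lists together, 59 of the 90 genes named in the table were raised in cluster 11 (65.6%, against 17.0% of all named genes). Of the 59, 44 were raised in no other cluster, as were 46.5% of all 3112 genes raised in cluster 11. The lists were drawn up with results of these data known, so those counts describe the cluster and were not tested.

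**Figure D4:**
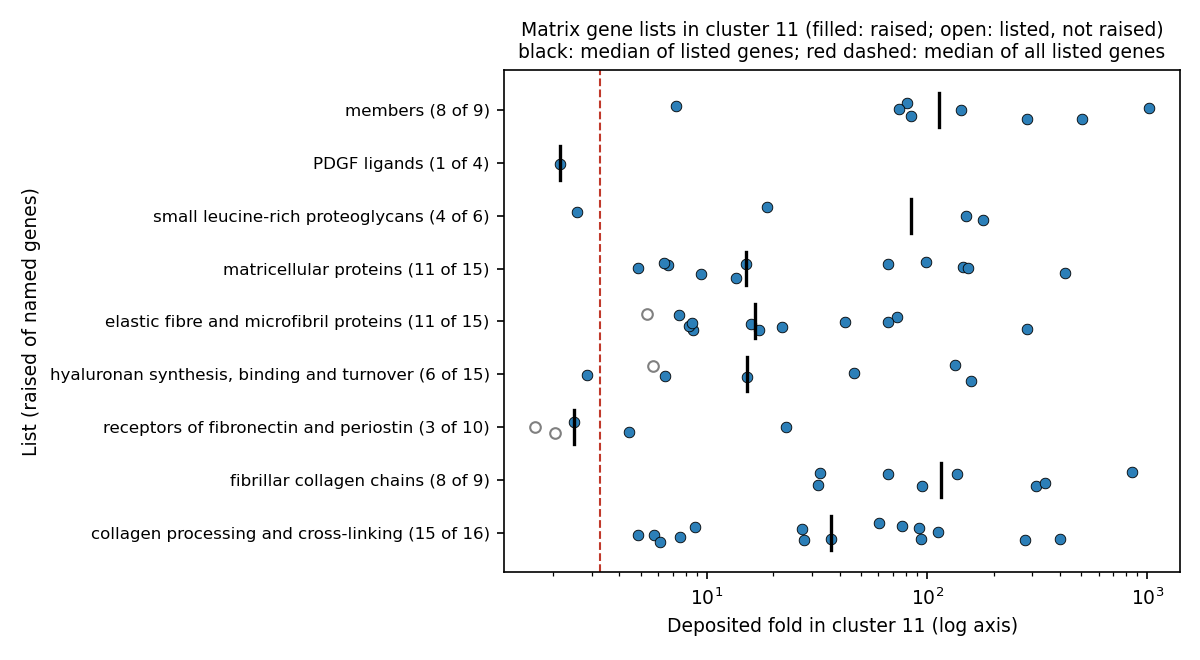
Deposited fold in cluster 11 (log axis) of the 9 genes and of 8 lists of related genes (rows), with raised genes filled, listed genes that were not raised open, and the number raised of those named in the table in parentheses; black bars are medians of listed genes and the red dashed line is the median of all genes listed there, 3.27. The medians of the members and of 6 lists lie right of the line, and those of PDGF ligands and of fibronectin and periostin receptors lie left of it.

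Genes with the most similar pattern were found by the Euclidean distance of log2 folds over the 11 clusters, an unlisted cluster counting as 0. For the 6 genes listed in cluster 11 alone, the measure comes down to the nearest fold in that cluster. The closest to Tnfaip6 were Col5a3, Serpina3n and Serpinb2, at distances of 0.26, 0.52 and 0.94, and the closest to Fbn1 were Serpinb2, Sfrp2 and Prss23. Pdgfra was nearest to Mfap5, Lox and Fstl1, and Dcn to Fxyd6, Hoxd8 and Clec3b. For Sparc they were Rcn3, Mxra8 and Ifit3, and for Lum Islr, Rad51c and Dpp4. The remaining 3 had companions listed in the same pair of clusters. Postn was nearest to Fndc1, Cthrc1 and Ly6c1, all listed in clusters 5 and 11, with Fndc1 at 2.31 and 73.0 in the authors' deposited table and a distance of 0.28. Pdgfrb was nearest to Zkscan5, E2f1 and Akap17b, listed in clusters 4 and 11; only E2f1 was raised in both, at 12.2 and 8.83 in the authors' deposited table. Fn1 was nearest to Pyroxd2, Slc66a2 and Arhgap17, which were listed in clusters 4 and 8 and raised in cluster 4 alone.

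Neighbouring genes were looked up as well. The 2 nearest protein-coding genes on each side of the 9 gave 32 distinct genes outside the set. Of these, 24 were named in the table and 4 were raised in cluster 11, which is 16.7% against 17.0% of all named genes. They were Kdr beyond Pdgfra, Ufm1 beside Postn, Dut beside Fbn1 and Rbm43 beside Tnfaip6, at 3.60, 3.13, 2.18 and 2.99 by the authors' deposited table. The first protein-coding gene beyond Pdgfra at higher coordinates was the related receptor gene Kit, 376.7 kb away. Kit was raised in clusters 4 and 6 at 5.32 and 4.26 in the authors' deposited table and not listed in cluster 11.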

How the data were processed

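The values come from 1 table of the authors' own comparisons, with 11 clusters side by side. For every gene in a cluster the authors deposited a fold change, which is a linear ratio. Beside it stands a p-value, so named per the file headers. The submitters' processing notes name mm10, STAR 2.7.3a, Partek and DESeq2 3.5, with no step assigned to any. The clustering, cell filters, doublet treatment, test and adjustment behind it are not stated: not given in the sources used here. Genes stand in order of the deposited p in all 11 clusters, and genes tied by p were placed as they stand. No gene is listed more than once in a cluster, and 0 columns hold values of single samples. With no replicates behind it, the p was used to filter and to order genes, and no test was run.

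The 9 genes, the 8 pathway lists and the 14 cell type lists were chosen with earlier results of these data known; 1 cell type list is not reported here. The rule for named genes took the 9 genes, the 3 nearest genes of each by profile (leaving out ribosomal, mitochondrial and predicted genes), and up to 3 of largest fold per list, for pathways in cluster 11 and for cell types in clusters 4, 8 and 11; other genes named were chosen after their values were seen. Gene positions are 1-based from GENCODE M21 (GRCm38, mm10). Calls and distances were tested on simulated data. Python 3.11.15, pandas 2.3.3 and NumPy 2.4.6 were used. Alternatives were a fold of 1.5 or of 3, a p limit of 0.01 or none, another value for unlisted clusters and Pearson correlation for likeness.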

Additional observations from a re-analysis of the deposited data

How the results depend on the processing

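Of 120 values under other thresholds or measures, 106 stayed within 1.5 times the reported count. With no threshold on the deposited p, Postn was raised in 2 clusters and cluster 5 held 1 of the 9 genes; fold thresholds of 1.5 and 3 and a p of at most 0.01 changed neither the number of the 9 genes raised in a cluster nor the number of clusters for any of them. For the 8 pathway lists together, no p threshold gave 2, 12, 11, 5, 13 and 6 raised genes in clusters 2, 3, 5, 7, 8 and 10, against 0, 6, 1, 2, 7 and 0. A fold of at least 3 gave 9, 1, 4 and 7 in clusters 6, 7, 8 and 9, against 16, 2, 7 and 15, and 0 PDGF ligands in cluster 11 against 1. These shifts follow from the thresholds themselves. Pearson correlation kept 3 of the 27 most similar genes, and a value of log2 1.5 for unlisted clusters kept all 27. With ribosomal, mitochondrial and predicted genes left out, 310 genes were listed in cluster 11 alone, 6 of the 9 among them, and their profiles all correlate equally with each other, so that measure cannot order them. The depth behind each fold is unknown, folds of genes absent from nearly all other cells can be very large, and unlisted genes have no value.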

Other observations

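Several genes of the matrix families were raised outside cluster 11 and not listed in it. The collagen chain gene Col27a1 was raised in clusters 1, 3 and 6, at 3.18, 2.12 and 2.40 by the authors' deposited table. The oxidase gene Loxl4 was raised in cluster 3 alone, at 41.1 by the authors' deposited table. The proteoglycan genes Podnl1 and Ecm2 had folds of 10.4 and 5.15 in cluster 6 by the authors' deposited table and were raised there. Comp, a cartilage matrix protein, and Emilin1, an elastic fibre glycoprotein, had folds of 5.69 and 7.06 in cluster 4 by the authors' deposited table and were raised there.

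Of the 9 named pericyte and smooth muscle genes, 1 was raised in each of clusters 3, 6, 7 and 9. In clusters 5 and 8 it was 2 each, and in cluster 11 it was 3. The share of all named genes raised was 20.3% in cluster 6 and 26.6% in cluster 9, and 1 of 9 lies below both. It was 17.0% in cluster 11 and ran from 3.42% to 6.36% in clusters 3, 5, 7 and 8. The counts are small and were not tested, so no spread over clusters is read from them. Notch3 and Mcam had folds of 21.1 and 8.04 in cluster 5 by the authors' deposited table, Mcam was also raised at 2.12 in cluster 9, and Rgs5 was raised at 5.02 in cluster 7 and 10.4 in cluster 8. By the authors' deposited table Kcnj8 was raised at 35.9 in cluster 8, Myh11 at 5.49 in cluster 6 and Cspg4 at 4.0 in cluster 3. The other 3 of the 9 named pericyte and smooth muscle genes, Acta2, Abcc9 and Tagln, were raised in cluster 11, where Pdgfrb was raised too.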
